A study of Mus musculus with 16 samples.

Results

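The core circadian clock genes were followed across the treatment groups of an RNA-seq experiment on lipolysis in cultured brown adipocytes. They are the 10 rows of the deposited count table with the symbols Arntl, Clock, Per1, Per2, Per3, Cry1, Cry2, Nr1d1, Nr1d2 and Dbp. All 10 were found among the 20295 genes of the table, and all 10 passed the filter on low counts and were among the 12786 genes tested. On the mouse build mm9 the table places Arntl at chr7:120350979-120457640, Clock at chr5:76638893-76733817, Per1 at chr11:68912458-68923459, Per2 at chr1:93312559-93355905 and Per3 at chr4:150377764-150418774. Cry1 is at chr10:84594445-84647799, Cry2 at chr2:92243804-92274226, Nr1d1 at chr11:98629246-98636691, Nr1d2 at chr14:19036570-19071620 and Dbp at chr7:52960617-52965573.

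BAT-LgT cells, immortalized brown preadipocytes of the mouse that carry the SV40 large T antigen, were differentiated in culture and treated on day 7. A pre-treatment of 1 h with vehicle (DMSO), 5 µM triacsin C or 50 µM etomoxir was followed by 3 h with or without SR-3420, and RNA was then sequenced. SR-3420 binds ABHD5, the activator of the lipase ATGL, and so sets off lipolysis with no β-adrenergic agonist. Triacsin C inhibits the long-chain acyl-CoA synthetases, which turn fatty acids into acyl-CoA, and etomoxir inhibits CPT1, which lets them into mitochondria for oxidation. The dose of SR-3420 is 10 µM in the labels and is given as higher in the figure legends of the study.

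The 16 samples form 6 groups. Vehicle has 2 samples (replicates 2 and 3) and SR-3420 alone has 2 (replicates 1 and 3), while triacsin C, triacsin C + SR-3420, etomoxir, and etomoxir + SR-3420 have 3 each. All groups share the cell line, the large T antigen, the day and the times. The study describes its RNA-seq replicates as independent experiments. The labels give each replicate a number and do not say whether the same number in different groups marks the same experiment. Total counts ran from 9452861 to 25670624 per sample. The lowest count of any clock gene in any sample was 71, for Dbp, and the highest was 4756, for Nr1d1. The cells were not synchronized by any step that the labels name, and each group was harvested at a single time, so the values are levels at 1 point and not rhythms.

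Adipocyte markers were abundant. In CPM (counts scaled by the TMM-normalized size of the library), Fabp4 averaged 6872 and Adipoq 2949 in vehicle. Among thermogenic markers, Ucp1 was low, at 1.97 and 0.461 CPM in the 2 vehicle samples, and Dio2 had no count there. Ppargc1a was higher, at a vehicle mean of 51.6 CPM, as were Prdm16 (34.8), Cidea (17.4) and Elovl3 (9.22). The 12 brown adipocyte markers summed to 14550 and 13210 CPM in vehicle and to 10850 and 9801 CPM in SR-3420, with Fabp4 the most abundant. The 4 markers of fibroblasts or preadipocytes, led by Col1a1, summed to 1334 and 1091 CPM in vehicle and to 3302 and 2257 CPM in SR-3420. With etomoxir the brown adipocyte markers went from 13940, 13000 and 14170 CPM without SR-3420 to 7866, 5587 and 9597 CPM with it, and the fibroblast markers from 1702, 1173 and 704 CPM to 3898, 2710 and 1761 CPM. With triacsin C the drop of the brown adipocyte markers was the largest, from 14550, 15690 and 15070 CPM to 5898, 5873 and 6229 CPM, and the fibroblast markers went from 1910, 1751 and 1412 CPM to 3828, 3126 and 2390 CPM. These sums rest on a few abundant genes, and the members did not move together. Of the 11 brown adipocyte markers tested, SR-3420 lowered 1 and raised 0 with no inhibitor, lowered 5 and raised 2 with triacsin C, and lowered 4 and raised 0 with etomoxir in edgeR, with median log2 fold changes of -0.036, -0.43 and -0.41. Of the 4 fibroblast markers it raised 0, 2 and 3 and lowered none (medians 0.88, 0.69 and 0.88). The shares of all genes were 4.75%, 17.3% and 12.5% higher and 2.79%, 19.7% and 12.8% lower. These shifts of the sums went along with the SR-3420 effects described for the clock genes, and their part in those effects was not tested. In bulk RNA, fewer cells of a type and less RNA per cell cannot be told apart. Markers of other cell types were far less abundant. The 3 endothelial markers summed to at most 3.29 CPM in any sample, the 4 muscle markers to at most 13.4 CPM and the 5 macrophage markers to at most 18.4 CPM, and Myf5 had no count in 15 samples. The macrophage markers, most of whose counts were those of Cd68 while Emr1 reached at most 0.215 CPM, were highest with triacsin C alone, at 16.6, 18.4 and 17.2 CPM beside 6.51 and 4.33 CPM in vehicle, and 1 of the 2 that could be tested was called higher there (4.77% of all genes). Of the 11 tested brown adipocyte markers, 4 were called lower with triacsin C alone (6.94% of all genes). The part of these shifts in the triacsin C effects on Arntl and Dbp was not tested.

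The clock is a feedback loop of transcription that runs in nearly every cell, brown adipocytes included. BMAL1, the product of Arntl, and CLOCK form a dimer that binds E-box sequences and activates the Per and Cry genes, whose products return to the nucleus and block the dimer. An auxiliary loop consists of REV-ERBα (Nr1d1) and REV-ERBβ (Nr1d2), which are themselves activated by BMAL1 and CLOCK and repress Arntl, in competition with activating receptors such as RORα (Rora) at the same elements. DBP is an output factor that the dimer also activates, and it works through D-box sequences, for example in Per genes. In brown fat the clock is known to set daily rhythms of thermogenesis, and Per1 and Per2 are also known to respond directly to hormones and to cAMP signalling.

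Without an inhibitor, SR-3420 raised 2 of the 10 clock genes and lowered 1. Per1 and Cry1 were higher and Per3 was lower, at an edgeR adjusted p under 0.05. Of all genes tested, 4.75% were called higher and 2.79% lower in this comparison. With triacsin C present, SR-3420 raised 6 clock genes, Arntl, Per1, Per2, Cry1, Nr1d1 and Nr1d2, and lowered Per3, against 17.3% of all genes called higher and 19.7% lower. With etomoxir present, it raised Per1, Cry1 and Nr1d1 and lowered Per3, against 12.5% of all genes higher and 12.8% lower. Per1, Cry1 and Per3 thus moved in the same direction in all 3 comparisons, each of which has its own controls. The median log2 fold change of the 10 genes was 0.13 with no inhibitor, 0.74 with triacsin C and 0.21 with etomoxir, beside medians over all genes tested of -0.0038, 0.019 and 0.0094.

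The calls with no inhibitor rest on 2 samples against 2. Fitted on those 4 samples alone, edgeR called none of the 10 clock genes (Per1 at an adjusted p of 0.264, Cry1 at 0.253 and Per3 at 0.114) and 45 genes higher and 1 lower over the whole table. The calls in the full model use the spread of all 6 groups. The 2 vehicle samples also serve as controls for both inhibitors, and differences between responses reuse the groups of the single comparisons, so these results are not independent of one another.

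Both inhibitors were also compared with vehicle in the absence of SR-3420. Triacsin C alone lowered Arntl and Dbp and raised no clock gene, against 6.94% of all genes called lower and 4.77% higher. DESeq2, run as another tool, also called no clock gene higher, and 3 of the 10 had an unadjusted edgeR p under 0.05. Etomoxir alone changed none of the 10, against 0.0156% of all genes called higher and 0.00782% lower. None of the 10 had an unadjusted edgeR p under 0.05 for etomoxir alone, and DESeq2 called none either. The median log2 difference over the clock genes was -0.30 for triacsin C (all genes 0.072) and -0.014 for etomoxir (all genes 0.0081).

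**Figure D1:**
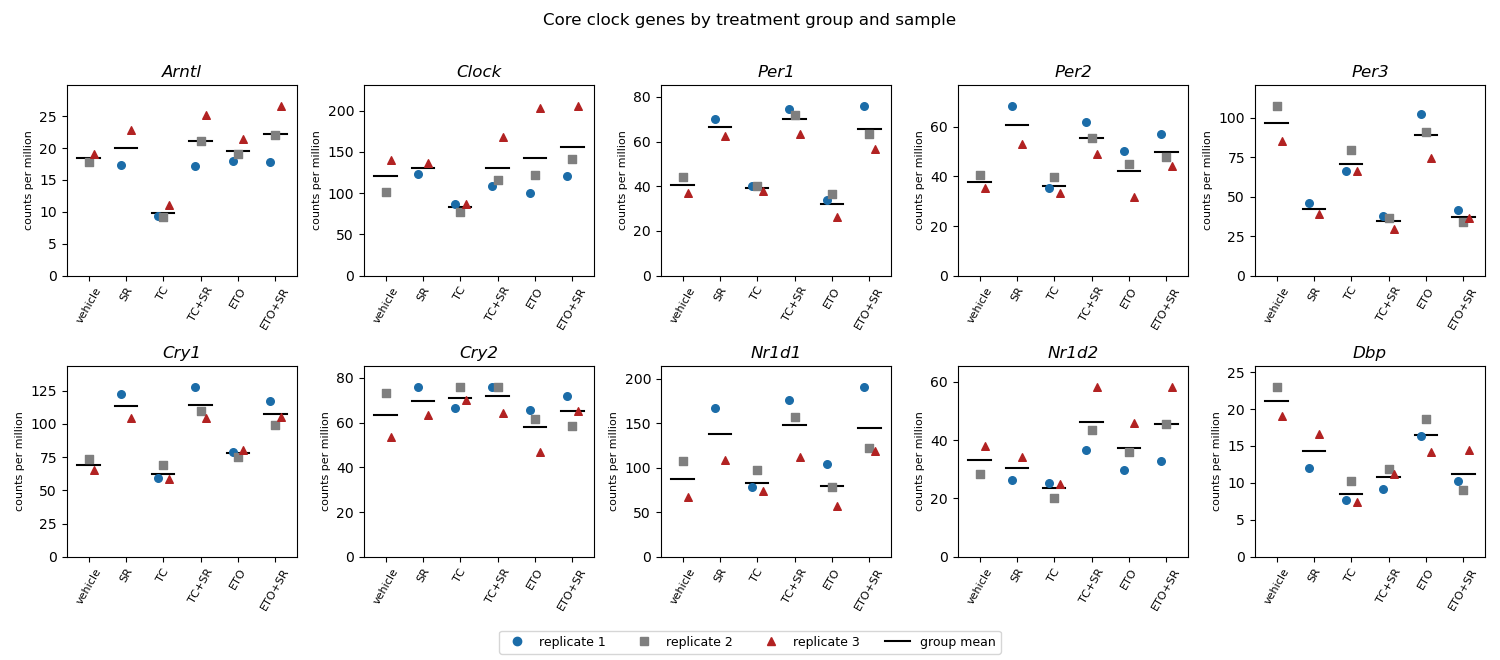
CPM of the 10 clock genes in each of the 16 samples (vertical axes, from 0) by treatment group (horizontal axes; SR, SR-3420; TC, triacsin C; ETO, etomoxir), with symbols for the replicate number and bars for the group means. Per3 is lower and Per1 and Cry1 are higher in each group with SR-3420 than in its matched control, and the 3 triacsin C samples are the lowest of all for Arntl.

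The activators come first. Arntl was at 17.8 and 19.0 CPM in vehicle and at 17.3 and 22.9 CPM in SR-3420. It was at 9.35, 9.16 and 11.2 CPM in triacsin C, at 17.2, 21.1 and 25.2 CPM in triacsin C + SR-3420, at 17.9, 19.1 and 21.5 CPM in etomoxir and at 17.8, 22.0 and 26.7 CPM in etomoxir + SR-3420. The 3 triacsin C samples thus lay below all other samples, and the other 5 groups overlapped one another. Triacsin C alone lowered Arntl by a log2 fold change of -0.89 (SE 0.21, edgeR adjusted p = 0.0130), and SR-3420 in the presence of triacsin C raised it by 1.09 (SE 0.19, edgeR adjusted p = 0.000663). The drop lost its call when vehicle replicate 2, vehicle replicate 3 or triacsin C replicate 2 was left out (edgeR adjusted p = 0.0574, 0.102 and 0.0534), with log2 fold changes of -0.94, -0.85 and -0.84. The rise with triacsin C kept its call under each sample left out, with edgeR adjusted p between 0.000757 and 0.00485. Without triacsin C the difference made by SR-3420 was 0.13 (SE 0.23) with no inhibitor and 0.18 (SE 0.19) with etomoxir, and neither passed the test.

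Clock, the partner of Arntl, was also lowest in triacsin C. It averaged 120.5 CPM ± 27.9 (SD, n = 2) in vehicle, 83.7 ± 5.73 (n = 3) in triacsin C and 130.8 ± 32.1 (n = 3) in triacsin C + SR-3420. The triacsin C samples, at 87.3, 77.1 and 86.6 CPM, lay below all others. Replicate 3 of etomoxir and of etomoxir + SR-3420 reached 203.6 and 206.1 CPM, well above the other replicates of those groups. The difference made by SR-3420 with triacsin C was 0.64 (SE 0.27, edgeR adjusted p = 0.0744) and that of triacsin C alone was -0.53 (SE 0.29, edgeR adjusted p = 0.312). In a model of only the 6 compared samples the former was called (edgeR adjusted p = 0.0166; 0.0166 to 0.282 over the alternatives without a replicate term).

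Npas2, a close paralog of Clock that can stand in for it, was looked at beside the 10. It was at 3.51 and 2.21 CPM in vehicle and at 0.323, 0.752 and 0.455 CPM in triacsin C. The log2 fold change was -2.43 (SE 0.42, edgeR adjusted p = 0.00189), and it was -2.09 (SE 0.38, edgeR adjusted p = 0.00834) for triacsin C added to SR-3420. Triacsin C thus lowered Npas2 with and without SR-3420, at counts far lower than those of Clock.

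Whether the response of a clock gene to SR-3420 differed between inhibitors was tested as a difference of log2 fold changes. In the model without a replicate term, no clock gene passed this test in any of 3 comparisons. For triacsin C against no inhibitor, 1.24% of all genes were called higher and 1.27% lower. For etomoxir against no inhibitor it was 0% in either direction, and for triacsin C against etomoxir 1.52% higher and 0.774% lower. Unadjusted p-values under 0.05 were found for 3, 0 and 3 of the 10. DESeq2 called 1 clock gene higher, Arntl, in the triacsin C comparisons and none in the etomoxir one, where it called 3 genes higher and 4 lower over the whole table and edgeR had 307 genes at an unadjusted p under 0.05. For Arntl the difference was 0.97 (SE 0.30) between triacsin C and no inhibitor, with an adjusted p of 0.110 in edgeR and 0.0342 in DESeq2 (0.0342 to 0.444 over the alternatives without a replicate term). Between triacsin C and etomoxir it was 0.91 (SE 0.27), with an adjusted p of 0.111 in edgeR and 0.0272 in DESeq2 (0.0272 to 0.263). A call with triacsin C and none without it is not by itself a difference between the 2 responses. In the model without a replicate term, edgeR's direct test of that difference did not pass for Arntl. With the replicate number as a block, Arntl passed against no inhibitor and against etomoxir (edgeR adjusted p = 0.0107 and 0.00336). Nr1d2 passed against no inhibitor (edgeR adjusted p = 0.0166). The block called 5.76% and 4.96% of all genes higher in these 2 comparisons. The median difference over the 10 genes was 0.17, 0.029 and 0.40 in the 3 comparisons, and -0.040, -0.0015 and -0.060 over all genes.

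**Figure D2:**
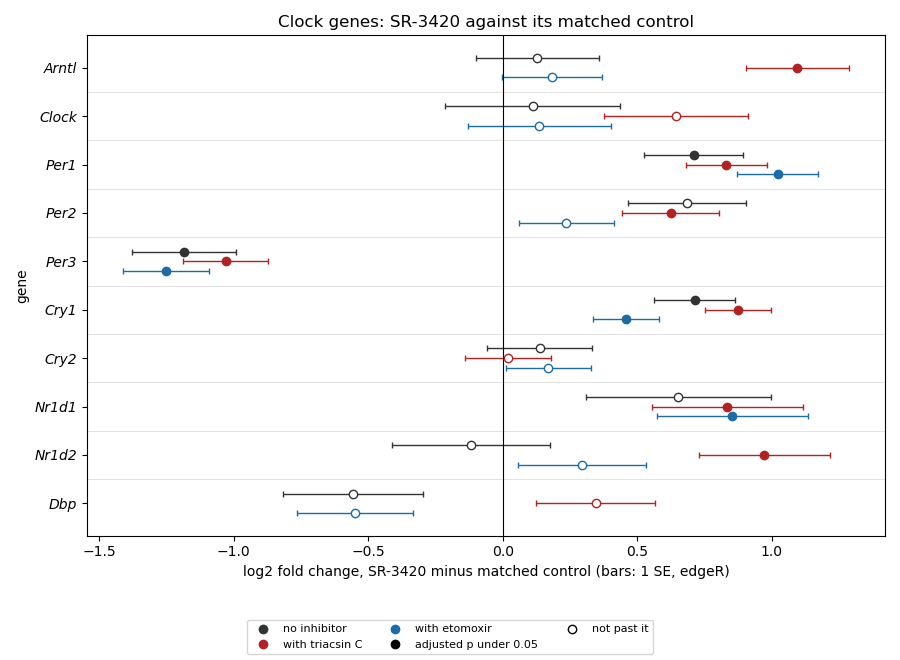
Log2 fold changes of the 10 clock genes for SR-3420 against its matched control (horizontal axis) with no inhibitor, with triacsin C and with etomoxir, from edgeR. Bars are 1 SE and filled points have an adjusted p under 0.05; Per3 lies between -1.25 and -1.03 in all 3 comparisons, while Arntl stands at 1.09 with triacsin C and at 0.13 and 0.18 without it.

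The repressors Per1, Per3 and Cry1 carry the calls shared by all 3 SR-3420 comparisons. The 250 bases upstream of their start sites, as the deposited coordinates place them on the mouse build mm9 (NCBIM37), are shown because 2 of them rose and 1 fell. They are chr11:68912208-68912457 on the plus strand for Per1, chr10:84647800-84648049 on the minus strand for Cry1 and chr4:150418775-150419024 on the minus strand for Per3. In GENCODE the Per1 window overlaps the Per1 gene, and 8 bases of the window belong to an exon. The Cry1 and Per3 windows overlap no annotated gene. Capitals mark the E-box CACGTG in Per1, the E-box and the related E′-box CACGTT (read as AACGTG from the other strand) in Cry1, and the D-box TTATGTAA in Per3.
Per1: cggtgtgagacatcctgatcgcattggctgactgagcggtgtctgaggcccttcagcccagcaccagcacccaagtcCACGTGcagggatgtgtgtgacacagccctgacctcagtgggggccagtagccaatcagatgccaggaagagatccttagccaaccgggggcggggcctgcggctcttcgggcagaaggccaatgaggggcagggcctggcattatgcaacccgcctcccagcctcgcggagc
Cry1: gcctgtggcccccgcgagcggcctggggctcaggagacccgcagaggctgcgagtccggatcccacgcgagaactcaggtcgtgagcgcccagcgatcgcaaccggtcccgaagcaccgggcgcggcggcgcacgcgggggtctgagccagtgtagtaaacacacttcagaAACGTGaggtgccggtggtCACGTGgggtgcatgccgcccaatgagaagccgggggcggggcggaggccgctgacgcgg
Per3: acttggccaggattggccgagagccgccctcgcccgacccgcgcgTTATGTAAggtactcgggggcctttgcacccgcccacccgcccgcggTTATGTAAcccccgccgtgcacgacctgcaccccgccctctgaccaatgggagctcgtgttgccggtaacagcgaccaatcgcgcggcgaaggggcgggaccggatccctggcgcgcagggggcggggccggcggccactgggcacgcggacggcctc
Both strands were searched in the same windows of all 20295 genes. The E-box was found in 6.92% of them and in Per1 and Cry1 among the 10 clock genes, 168 to 173 bases upstream in Per1 and 55 to 60 in Cry1. The D-box was found in 0.749% of the windows and in Per2 and Per3, and Per3 held it at 198 to 205 and at 151 to 158 bases upstream. The E′-box was found in 4.06% of the windows and in Cry1, Cry2 and Nr1d1. None of these matches overlapped another. The cAMP response element TGACGTCA was found in 2.14% of the windows, and in 2.88% when 1000 bases were searched, and in no clock gene at either length. The nuclear receptor element AGGTCA, not marked in the sequences, was found in 12.0% of the windows and in Per1 and Nr1d2, and in 45.3% and 7 of the clock genes when 1000 bases were searched. These are matches of letters and not tested binding sites, and a window with no match says nothing of sites elsewhere.

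**Figure D3:**
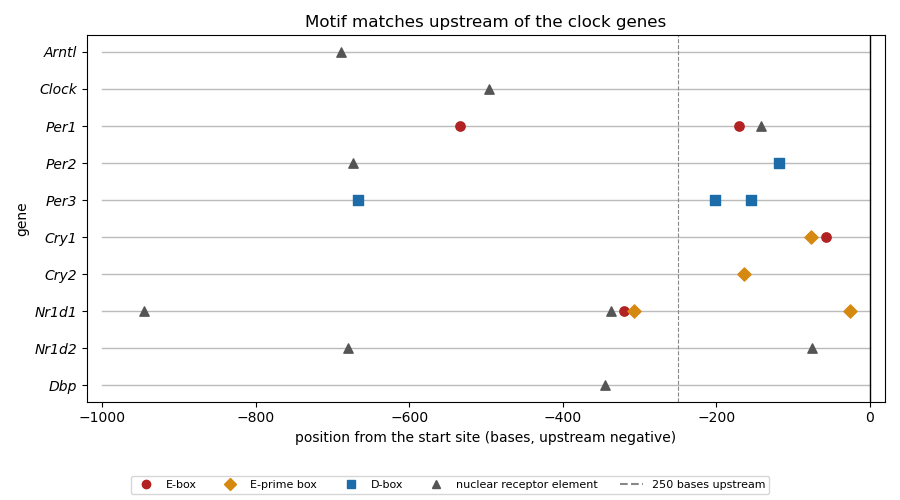
Positions of 4 kinds of motif match within 1000 bases upstream of each clock gene's start site (horizontal axis, in bases; start site at 0), on either strand. The dashed line marks 250 bases; E-boxes lie inside it in Per1 and Cry1, and D-boxes in Per2 and Per3.

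Per1, an early responding member of the PER family, was at 43.9 and 37.2 CPM in vehicle and at 70.2 and 62.5 CPM in SR-3420. It was at 40.2, 40.3 and 37.7 CPM in triacsin C and at 74.7, 71.9 and 63.3 CPM in triacsin C + SR-3420. With etomoxir it went from 34.0, 36.6 and 26.1 CPM to 76.1, 63.5 and 56.6 CPM. All 8 samples with SR-3420 thus lay above all 8 without it. The log2 fold change was 0.71 (SE 0.18, edgeR adjusted p = 0.0331) with no inhibitor, 0.83 (SE 0.15, edgeR adjusted p = 0.000842) with triacsin C and 1.02 (SE 0.15, edgeR adjusted p = 0.000366) with etomoxir. The call with no inhibitor was lost when any 1 of its 4 samples was left out: edgeR adjusted p = 0.083 and 0.22 without vehicle replicates 2 and 3, and 0.189 and 0.0683 without SR-3420 replicates 1 and 3. The log2 fold changes in those fits lay between 0.60 and 0.84. The calls with triacsin C and with etomoxir were kept under each sample left out.

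Per2, the partner of Per1 with D-box letters upstream, was at 40.7 and 35.1 CPM in vehicle and at 68.6 and 53.3 CPM in SR-3420, which do not overlap. The log2 fold change of 0.68 (SE 0.22) had an edgeR adjusted p of 0.0776, and DESeq2 gave 0.0355 (0.0355 to 0.416 over the alternatives without a replicate term). A block by replicate number also called this rise (edgeR adjusted p = 0.00758). With triacsin C Per2 was at 35.3, 39.7 and 33.2 CPM, and at 61.9, 55.7 and 49.0 CPM once SR-3420 was added. That rise of 0.62 (SE 0.18, edgeR adjusted p = 0.0148) lost its call without triacsin C replicate 3 (0.56, edgeR adjusted p = 0.0592) or without triacsin C + SR-3420 replicate 1 (0.54, edgeR adjusted p = 0.0572). With etomoxir the groups overlapped, at 31.7 to 50.3 CPM without SR-3420 and at 44.4 to 57.1 CPM with it, and the difference was 0.24 (SE 0.18).

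Per3 went the other way. It was at 107.7 and 85.1 CPM in vehicle and at 46.0 and 38.9 CPM in SR-3420. With triacsin C it fell from 66.3, 79.7 and 66.2 CPM to 37.8, 36.4 and 29.7 CPM, and with etomoxir from 102.2, 90.7 and 74.6 CPM to 41.8, 34.3 and 36.3 CPM. All samples with SR-3420 lay below all samples without it, the reverse of Per1. The log2 fold change was -1.19 (SE 0.19, edgeR adjusted p = 0.00259) with no inhibitor, -1.03 (SE 0.16, edgeR adjusted p = 0.000263) with triacsin C and -1.25 (SE 0.16, edgeR adjusted p = 0.000135) with etomoxir. All 3 calls were kept under each sample left out, with edgeR adjusted p of at most 0.0324, and that with no inhibitor was lost in the fit of its 4 samples alone (-1.21, edgeR adjusted p = 0.114). Triacsin C alone gave -0.45 (SE 0.17, edgeR adjusted p = 0.123).

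Cry1, a repressor that binds the BMAL1 and CLOCK dimer directly, was at 73.3 and 65.0 CPM in vehicle and at 122.5 and 104.2 CPM in SR-3420. It rose from 59.2, 69.1 and 58.8 CPM to 128, 110 and 104.6 CPM with triacsin C, and from 79.1, 74.8 and 80.5 CPM to 117.2, 99.1 and 105.5 CPM with etomoxir. The 8 samples with SR-3420 lay above the 8 without it. The log2 fold change was 0.71 (SE 0.15, edgeR adjusted p = 0.0114) with no inhibitor, 0.87 (SE 0.12, edgeR adjusted p = 0.000133) with triacsin C and 0.46 (SE 0.12, edgeR adjusted p = 0.0145) with etomoxir. With no inhibitor the call was lost without vehicle replicate 3 (0.63, edgeR adjusted p = 0.111) or SR-3420 replicate 1 (0.59, edgeR adjusted p = 0.106). With etomoxir it was lost without etomoxir replicate 2 (0.43, edgeR adjusted p = 0.0605) or etomoxir + SR-3420 replicate 1 (0.39, edgeR adjusted p = 0.0513), and in a model of those 6 samples alone (0.44, edgeR adjusted p = 0.111).

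Cry2, the paralog of Cry1, varied least of the 10. Its group means ran from 58.0 CPM ± 9.92 (SD, n = 3) in etomoxir to 71.9 ± 6.62 (n = 3) in triacsin C + SR-3420, a span of 0.31 on the log2 scale. Each SR-3420 group overlapped its matched control, while the triacsin C samples (66.7 to 76.1 CPM) lay above the etomoxir samples (46.8 to 65.7 CPM). Its log2 fold changes with SR-3420 were 0.14, 0.020 and 0.17 with no inhibitor, triacsin C and etomoxir. A long noncoding RNA on the opposite strand, D930015M05Rik, lies within Cry2 in GENCODE, and reads from the 2 cannot be told apart where their exons meet, since the use of strand in counting is not stated.

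In the auxiliary loop, Nr1d1 was at 108.0 and 66.8 CPM in vehicle and at 166.4 and 108.4 CPM in SR-3420. With triacsin C it went from 78.6, 96.9 and 73.9 CPM to 176.3, 156.6 and 111.5 CPM, and with etomoxir from 104.4, 78.2 and 56.9 CPM to 190.9, 122.6 and 119.0 CPM. The samples with and without SR-3420 did not overlap within any of the 3 pairs of groups, yet replicates 1 and 3 of a group were often far apart. The log2 fold change was 0.65 (SE 0.34, edgeR adjusted p = 0.293) with no inhibitor, 0.83 (SE 0.28, edgeR adjusted p = 0.0326) with triacsin C and 0.85 (SE 0.28, edgeR adjusted p = 0.0405) with etomoxir. Both calls depended on single samples. The call with triacsin C was lost without triacsin C replicates 1 or 3 (0.79 and 0.75, edgeR adjusted p = 0.0905 and 0.104) or triacsin C + SR-3420 replicates 1 or 2 (0.69 and 0.84, edgeR adjusted p = 0.108 and 0.0557). The call with etomoxir was lost without etomoxir replicates 2 or 3 (0.84 and 0.66, edgeR adjusted p = 0.108 and 0.117), without etomoxir + SR-3420 replicates 1 or 2 (0.60 and 0.96, edgeR adjusted p = 0.145 and 0.0595), and in a model of those 6 samples alone (0.85, edgeR adjusted p = 0.103). Thra on the opposite strand shares 1075 bases with the 3′ end of Nr1d1 in GENCODE, and reads from there cannot be told apart either.

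Nr1d2, the paralog of Nr1d1, did not follow it in every group. It was at 28.2 and 37.8 CPM in vehicle and at 26.5 and 34.4 CPM in SR-3420, which overlap. With triacsin C it rose from 25.4, 20.3 and 24.8 CPM to 36.5, 43.5 and 58.2 CPM, with no overlap. The log2 fold change was 0.97 (SE 0.24, edgeR adjusted p = 0.00706) with triacsin C, and this call was kept under each sample left out. It was -0.12 (SE 0.29) with no inhibitor and 0.29 (SE 0.24) with etomoxir. The difference of responses between triacsin C and no inhibitor was 1.09 (SE 0.38, edgeR adjusted p = 0.161). Under a block by replicate number this difference was called (0.99, edgeR adjusted p = 0.0166).

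Rora and Rorb, which encode receptors that compete with REV-ERB at the same elements, were also looked at. Rora was at 9.87 and 14.2 CPM in vehicle and at 3.44, 4.24 and 4.70 CPM in triacsin C, a log2 fold change of -1.53 (SE 0.36, edgeR adjusted p = 0.0137), and SR-3420 with triacsin C raised it by 1.55 (SE 0.33, edgeR adjusted p = 0.00280). Rorb rose with SR-3420 in the presence of triacsin C, by 1.57 (SE 0.27, edgeR adjusted p = 0.000607), and of etomoxir, by 0.82 (SE 0.26, edgeR adjusted p = 0.0356). Rora and Arntl therefore had low values in the same 3 samples. Ciart, a repressor of the BMAL1 and CLOCK dimer, also responded to SR-3420. It went from 3.22 and 3.14 CPM in vehicle to 13.0 and 15.3 CPM in SR-3420, a log2 fold change of 2.15 (SE 0.21, edgeR adjusted p = 6.62e-05), and triacsin C alone raised it by 1.82 (SE 0.20, edgeR adjusted p = 6e-05).

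Dbp, the output factor, was highest in vehicle, at 23.0 and 19.1 CPM, and was at 12.0 and 16.6 CPM in SR-3420. It was at 7.63, 10.3 and 7.36 CPM in triacsin C and at 9.16, 11.9 and 11.3 CPM in triacsin C + SR-3420, which overlap. Etomoxir gave 16.4, 18.7 and 14.2 CPM, and etomoxir + SR-3420 gave 10.2, 8.98 and 14.4 CPM. Triacsin C alone lowered Dbp by a log2 fold change of -1.32 (SE 0.24, edgeR adjusted p = 0.00256), the largest difference of any clock gene for an inhibitor alone, and the call was kept under each sample left out. The difference made by SR-3420 was -0.56 (SE 0.26, edgeR adjusted p = 0.234) with no inhibitor, 0.35 (SE 0.22, edgeR adjusted p = 0.240) with triacsin C and -0.55 (SE 0.21, edgeR adjusted p = 0.0774) with etomoxir. Without etomoxir + SR-3420 replicate 3 the last became -0.77 (edgeR adjusted p = 0.0218), and DESeq2 called it (adjusted p = 0.0498; 0.0218 to 0.266 over the alternatives without a replicate term). Dbp shares 741 bases with Sphk2 on the opposite strand, and its low counts may include reads of that gene.

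**Figure D4:**
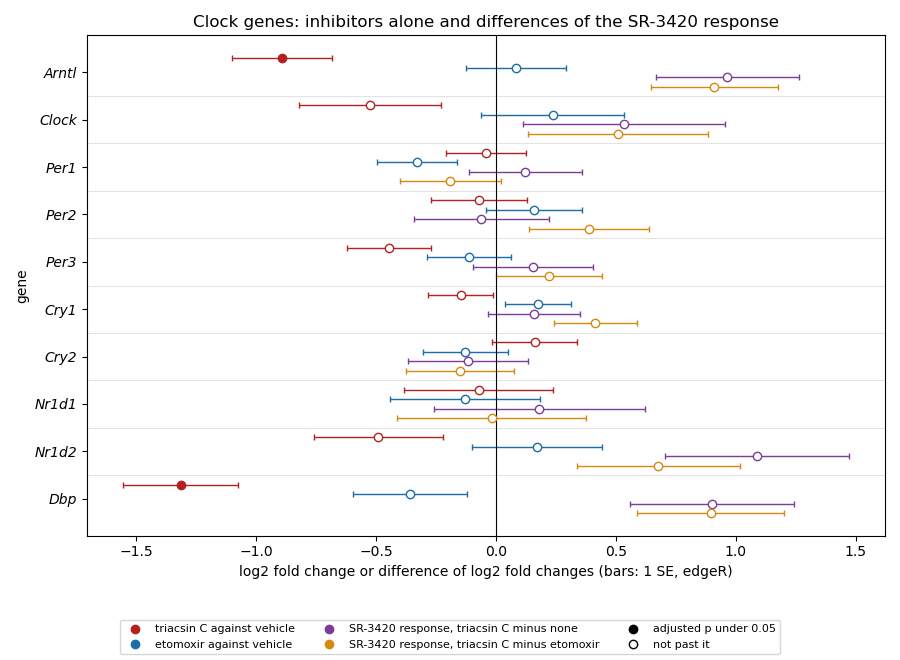
Log2 fold changes of the 10 clock genes for triacsin C and etomoxir against vehicle, and differences of the SR-3420 response between triacsin C and no inhibitor and between triacsin C and etomoxir (horizontal axis; bars, 1 SE; filled points, edgeR adjusted p under 0.05). Filled points are found only for triacsin C against vehicle, at Arntl (-0.89) and Dbp (-1.32).

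Output genes beside Dbp were taken as a list of 8. SR-3420 raised 2 and lowered 1 of them with no inhibitor (median -0.014), raised 3 and lowered 2 with triacsin C (median 0.19), and raised 4 and lowered 2 with etomoxir (median 0.33). Of all genes, 4.75%, 17.3% and 12.5% were called higher and 2.79%, 19.7% and 12.8% lower in these comparisons. Tef, a relative of Dbp that binds the same D-box, fell by -0.76 (SE 0.12, edgeR adjusted p = 0.00229), -0.65 (SE 0.10, edgeR adjusted p = 0.000253) and -0.67 (SE 0.10, edgeR adjusted p = 0.000404) in the 3 comparisons. Nfil3, which represses at D-boxes, rose by 0.80 (SE 0.18, edgeR adjusted p = 0.0165) with no inhibitor and by 0.79 with triacsin C and with etomoxir (SE 0.15 in each, edgeR adjusted p = 0.00103 and 0.00187). Bhlhe40, which represses at E-boxes, rose by 1.19 (SE 0.18, edgeR adjusted p = 0.00145), 0.62 (SE 0.14, edgeR adjusted p = 0.00415) and 1.97 (SE 0.15, edgeR adjusted p = 2.28e-06). The D-box activator Tef and the D-box repressor Nfil3 moved in opposite directions in every comparison with SR-3420. With triacsin C alone, 1 of the 8 was lower (6.94% of all genes), Hlf, another D-box activator, at -1.05 (SE 0.31, edgeR adjusted p = 0.0457).

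Of 15 kinases, ligases and partners that act on PER and CRY proteins, SR-3420 raised 1 with no inhibitor, raised 5 and lowered 1 with triacsin C, and raised 2 and lowered 1 with etomoxir, with medians of -0.017, 0.28 and 0.044. The shares of all genes called higher were 4.75%, 17.3% and 12.5% in the same comparisons, and the shares called lower were 2.79%, 19.7% and 12.8%. The 1 shared by all 3 was Csnk2a2, a catalytic subunit of casein kinase 2, with log2 fold changes of 0.61, 0.71 and 0.63. Triacsin C alone lowered 3, Btrc (-0.97), Gsk3b (-1.10) and Fbxw11 (-0.42), against 6.94% of all genes.

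Immediate early genes listed as driven by cAMP response elements stand beside Per1, which is often counted among them. The list was drawn up by name, and matches to the element in these genes were not looked up. Of 11, SR-3420 raised 9 with no inhibitor, 9 with triacsin C and 10 with etomoxir, and lowered none, with medians of 2.09, 1.84 and 2.36, while 4.75%, 17.3% and 12.5% of all genes were called higher. No member of this list had an unadjusted edgeR p under 0.05 in the lower direction, since all those under it were called higher. Egr1 was at 92.4 and 89.0 CPM in vehicle and at 507.6 and 522.7 CPM in SR-3420, a log2 fold change of 2.51 (SE 0.18, edgeR adjusted p = 6.01e-06), and Fos rose by 2.96 (SE 0.31, edgeR adjusted p = 0.000117). Per1 rose in the same comparisons by a smaller factor. Crem, of the same list, was not called with no inhibitor and averaged 8.25 CPM in vehicle and 5.18 CPM in SR-3420. Of 5 glucocorticoid targets, SR-3420 raised 1, 3 and 2 in the 3 comparisons, beside the same shares of all genes, and Sgk1 was among them each time, at 1.35, 1.86 and 2.18. Zbtb16, of the same list, was lower with triacsin C alone, at -2.06 (SE 0.22, edgeR adjusted p = 5.01e-05).

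Inhibitors were also compared within the SR-3420 groups. In the model without a replicate term, triacsin C added to SR-3420 changed none of the 10 clock genes. Of all genes, 1.02% were called higher and 3.55% lower. Etomoxir added to SR-3420 changed none either, against 0% higher and 0.00782% lower. At an unadjusted edgeR p under 0.05 there were 1 clock gene and none, DESeq2 called none in either comparison, and over all genes etomoxir had 1279 at an unadjusted edgeR p under 0.05 and 8 called higher and 81 lower by DESeq2. The largest differences were those of Nr1d2, 0.60 (SE 0.27, edgeR adjusted p = 0.247) for triacsin C and 0.58 (SE 0.27, edgeR adjusted p = 0.502) for etomoxir. Arntl, lower with triacsin C alone, differed by 0.073 (SE 0.21) when triacsin C was added to SR-3420. The medians over the clock genes were 0.027 and -0.049, and over all genes 0.017 and -0.00049.

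Between genes, levels were compared per length of the counted exons (RPKM, CPM per kilobase). In vehicle Nr1d1 was highest, at 31.6 RPKM ± 10.5 (SD, n = 2), followed by Cry1 at 22.9 ± 1.93, Dbp at 18.5 ± 2.45, Cry2 at 16.5 ± 3.61 and Per3 at 16.1 ± 2.66. Below them came Clock at 12.4 ± 2.87, Per1 at 8.70 ± 1.03, Nr1d2 at 7.12 ± 1.46, Arntl at 7.03 ± 0.333 and Per2 at 6.49 ± 0.668. The SD ranges of neighbours in this order overlapped except for those of Cry1 and Dbp, which came close to touching. In SR-3420, Per1 at 14.2 RPKM ± 1.17 stood above Per3 at 7.07 ± 0.841 (n = 2 each), the reverse of their order in vehicle.

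For the 4 clock genes whose group means span at least 1 on the log2 scale, the genes with the most similar profile over the 6 group means were found among 10333 tested genes of at least 5 CPM. Likeness was the root mean square difference of the centred log2 profiles. Arntl was closest to Camk2d, Etv6 and Nf1 (0.047 to 0.057), Per1 to Cspg4, Slco3a1 and Cited2 (0.037 to 0.064), Per3 to Cbx7, Ebpl and Cdo1 (0.085 to 0.094) and Dbp to Klhl2, Ldlrad4 and Mfsd7c (0.065 to 0.097). Among the clock genes themselves, Per1 and Nr1d1 were the most alike (0.086) and Per1 and Per3 the least (1.03).

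The replicate number was tested as a term of its own, since it is the only label that could mark separate experiments. In a model with group and replicate number, 7 of the 10 clock genes differed between numbers, against 56.1% of all genes tested. The 7 were Arntl, Clock, Per1, Per2, Per3, Nr1d1 and Nr1d2. The smallest edgeR adjusted p of the 7 was that of Nr1d1, 0.00125. Markers of cell types differed between numbers as well, 4 of 4 for fibroblasts and 7 of 11 for brown adipocytes. Of the other markers tested, 1 of 2 for macrophages, 0 of 1 for endothelial cells and 0 of 2 for muscle did. Col1a1 deviated from its group means by 0.40 on the log2 scale in replicate 1 and by -0.40 in replicate 3. The part of these shifts in the clock gene differences was not tested. Averaged over the groups, Nr1d1 deviated from its group means by 0.28 in replicate 1 and by -0.31 in replicate 3 on the log2 scale, while Clock deviated by -0.20 and 0.29 and Arntl by -0.19 and 0.18. Per3 lost this call in 10 of the 16 fits that left out 1 sample. Its edgeR adjusted p was 0.0777 and 0.0791 without vehicle replicates 2 and 3, 0.0608 and 0.0605 without SR-3420 replicates 1 and 3, and 0.0584, 0.0711 and 0.0883 without triacsin C + SR-3420 replicates 1, 2 and 3. It was 0.0561 and 0.102 without etomoxir replicates 1 and 3, and 0.0545 without etomoxir + SR-3420 replicate 1 (edgeR adjusted p). Cry2 gained the call without triacsin C replicates 1 or 3 (edgeR adjusted p = 0.00996 and 0.0411) or etomoxir + SR-3420 replicates 2 or 3 (0.0164 and 0.0437), and Dbp without etomoxir + SR-3420 replicate 2 (0.0374). Per1 lost the call without etomoxir replicate 3 or etomoxir + SR-3420 replicate 3 (edgeR adjusted p = 0.0657 and 0.0550).

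**Figure D5:**
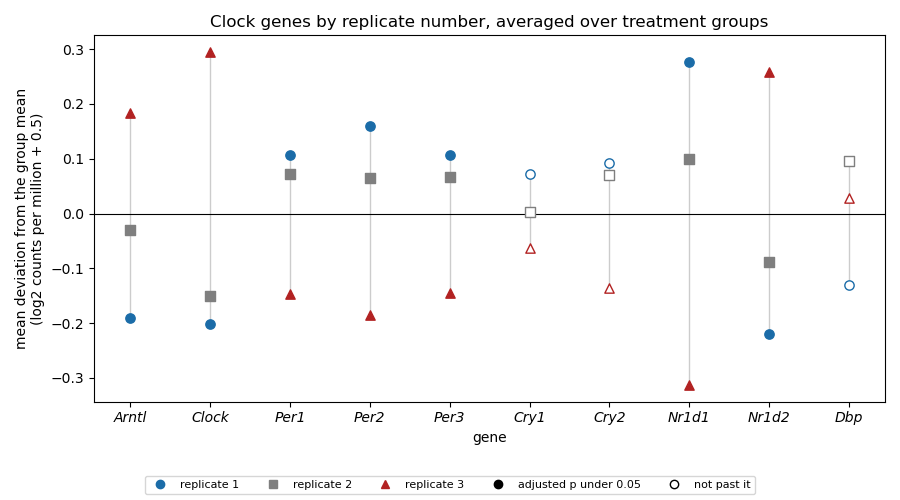
Mean deviation of each clock gene from its group means by replicate number (vertical axis, log2 of CPM + 0.5; symbols, replicate numbers; filled, edgeR adjusted p under 0.05 for the replicate number). Arntl, Clock and Nr1d2 are highest in replicate 3, at 0.18, 0.29 and 0.26, and Nr1d1 is lowest there, at -0.31.

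The opposite deviations of Nr1d1 and Arntl show in their ratio of RPKM values, chosen for display after the values were seen. It was 5.75 and 3.32 in vehicle replicates 2 and 3, and 9.08 and 4.49 in SR-3420 replicates 1 and 3. With etomoxir + SR-3420 it was 10.2, 5.28 and 4.22 in replicates 1, 2 and 3, and with triacsin C it was 7.95, 10.0 and 6.27. Replicate 3 had the lowest ratio in each of the 6 groups, and the group means, from 3.97 in etomoxir to 8.07 in triacsin C, differed by less than the range within etomoxir + SR-3420. In replicate 3, the only number that vehicle and SR-3420 share, Per1 went from 37.2 to 62.5 CPM, Cry1 from 65.0 to 104.2 CPM and Per3 from 85.1 to 38.9 CPM.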

How the data were processed

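RNA-seq counts of 16 samples were analysed. The authors aligned reads to mm9 with STAR 2.4.2a, used HOMER to remove reads that repeated a position and length, counted reads on genes with iRNA-seq and deposited raw counts; whether counting used the strand is not stated in the sources used here. This removal caps the counts of short, abundant genes.

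From these counts, edgeR 4.0.16 in R 4.3.3 (TMM, filterByExpr, quasi-likelihood test, 1 model of 6 groups, no covariate) gave log2 fold changes, SEs and p-values, adjusted by Benjamini-Hochberg over the 12786 genes tested and called under 0.05. DESeq2 1.42.0 and other filters, scalings and sample sets were alternatives. The methods were also run on simulated counts that held no effect of the replicate number. That run cannot show how the model without a replicate term behaves where such an effect is present. CPM and RPKM are TMM-normalized. Of other lists, at most 4 genes past the threshold in a comparison were named, those of smallest p. Start sites follow the table, whose start counts from 0. RefSeq promoters (GRCm38.p6) matched 9 of the 10 genes and were not used. The clock genes and lists were chosen with earlier results of these data known. Figures were drawn with matplotlib.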

Additional observations from a re-analysis of the deposited data

How the results depend on the processing

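No called difference of a clock gene changed sign under any alternative. The count of clock genes called higher for SR-3420 against vehicle (2) was 0 in a model of only the compared groups, where the count lower (1) was also 0, and lay between 0 and 1 with 1 sample left out, while DESeq2 gave 3 with Per2 added. With triacsin C the count higher (6) was 7 in a model of only the compared groups, with Clock added, and lay between 4 and 6 with a sample left out. With etomoxir the count higher (3) was 1 in a model of only the compared groups and lay between 1 and 3 with a sample left out, and the count lower (1) was 2 with the DESeq2 Wald test and lay between 1 and 2 with a sample left out. For triacsin C against vehicle the count lower (2) lay between 1 and 2 with a sample left out. The response differences of triacsin C against none and against etomoxir (0 called higher) each had 1 with DESeq2. No count of clock genes moved with DESeq2's size factors, with no filter, or with at least 10 counts required in every sample. Over 840 single-gene results with a sample left out, replicate number tests included, 33 lost a call and 6 gained one. The 840 include results that had no call to lose, so 33 of 840 is not the share of calls lost. Leaving out a vehicle or SR-3420 sample leaves a group of 1, whose spread is taken from the other groups.

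Whether a number marks the same experiment in different groups is not stated. Deviations from the group means correlated at a mean r of 0.46 between same-numbered samples (27 of 35 pairs over 0.1, lowest -0.32). The pairs of replicate 3 all lay between 0.55 and 0.85. Each same-numbered pair under 0.1 held triacsin C replicate 1 or etomoxir + SR-3420 replicate 2, and all others were at least 0.26. Differently numbered pairs averaged -0.23. Since some same-numbered pairs were under 0.1, the reported tests were not paired. With the replicate number as a replicate block, the clock genes called higher were 3 for SR-3420 against vehicle (Per2 added, edgeR adjusted p = 0.00758) and 7 with triacsin C (Clock added, edgeR adjusted p = 0.00376). Those called lower were 3 for triacsin C against vehicle (Per3 added, edgeR adjusted p = 0.0111) and 2 for SR-3420 with etomoxir (Dbp added, edgeR adjusted p = 0.0285). Those called higher for triacsin C added and for etomoxir added to SR-3420 were 1 and 1 (Nr1d2, edgeR adjusted p = 0.016 and 0.0368). Under triacsin C the block gave 2 higher responses against none (Arntl and Nr1d2, edgeR adjusted p = 0.0107 and 0.0166) and 1 against etomoxir (Arntl, edgeR adjusted p = 0.00336). In all, 9 single-gene results gained a call with the block and none lost one.

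Over all genes, calls higher and lower for SR-3420 against vehicle (607 and 357) were 896 and 688 with DESeq2, 490 and 210 with no filter, and 1423 and 1015 with the replicate block. With etomoxir (1597 and 1637) they were 620 and 585 among the compared groups and 2897 and 2879 with the block, and with triacsin C (2208 and 2514) 3515 and 3670 with the block. For triacsin C against vehicle (610 and 887) they were 384 and 887 with no filter and 1530 and 1542 with the block. For triacsin C added to SR-3420 (131 and 454) they were 462 and 757 with DESeq2, 78 and 392 with no filter, 9 and 69 among the compared groups and 1277 and 1731 with the block. For etomoxir against vehicle (2 and 1) they were 7 and 10 with DESeq2, 0 and 0 among the compared groups and 4 and 2 with the block. For etomoxir added (0 and 1) they were 8 and 81 with DESeq2 and 761 and 1077 with the block. Response differences of triacsin C against none (158 and 163) were 434 and 375 with DESeq2, 88 and 75 with no filter and 737 and 932 with the block. Those of etomoxir against none (0 and 0) were 3 and 4 with DESeq2 and 1 and 2 with the block, and those of triacsin C against etomoxir (194 and 99) 446 and 212, 145 and 59, and 634 and 421. Leaving out a sample gave 194 to 364 higher and 69 to 140 lower for SR-3420 against vehicle, 1041 to 1605 and 948 to 1716 with etomoxir, and 180 to 414 and 522 to 675 for triacsin C against vehicle. It gave 7 to 73 and 47 to 328 for triacsin C added to SR-3420, 0 and 0 to 12 for etomoxir added, 20 to 94 and 28 to 106 for the response difference of triacsin C against none, and 92 to 171 and 51 to 91 for that against etomoxir. The shares of all genes set beside the clock genes move with these counts. No scaling moved the median of all genes by over 0.1 on the log2 scale. With 2 samples in vehicle and in SR-3420, and counts as low as 71 for Dbp, small differences were not detectable.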
